A study of Trichoderma reesei with 12 samples.

Results

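Genes in adjacent rows of a count table that were all less abundant in light were followed in mycelium of the filamentous fungus Trichoderma reesei. They were found from CPM, the count of a gene divided by the total count of its library, times 1000000. Row order was taken as gene order along a chromosome, which was not checked against coordinates. A row of the count table qualified when its mean was at least 5 CPM in darkness and its level in light was at most 1/2 of that in darkness, in each of 2 strains. Of 10879 rows, 868 (7.98%) qualified. Runs of at least 4 consecutive qualifying rows with the same identifier letter (TrA to TrG) numbered 11 and held 48 rows. Of these rows, 14 had under 0.5 CPM in light in both strains and were left out of the counts, which leaves 34 genes in 10 runs; all 4 rows of the eleventh run were left out. TrE0659C to TrE0665C, which were to be left out as well, lay in no run. The members were thus chosen by their measured CPM in light and darkness in all 12 libraries, so their response to light is described below and not tested as a finding.

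The libraries came from 4 groups: the sor4 strain in light (n = 4), the ku80 strain in light (n = 2), the sor4 strain in darkness (n = 4) and the ku80 strain in darkness (n = 2). Both strains derive from QM6a and carry a deletion of ku80, a gene of non-homologous end joining whose loss eases gene targeting; the sor4 strain, QM6aΔku80Δsor4, also lacks sor4, named in the series as a transporter of the SOR cluster, and the ku80 strain, QM6aΔku80, served as the wild type. All cultures grew for 96 h at 28 °C on cellulose in minimal medium, and the sources used here do not say how many transformants stand behind the deletion strain. Nothing in the labels says that replicates were separate cultures, so p-values measure only how far these libraries scatter, and that scatter may be technical.

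Neighbouring genes of filamentous fungi can form clusters that are switched on and off together, as is known for the enzymes of many secondary metabolites and for some sets of carbohydrate-degrading enzymes. Neighbours can also share the stretch between their starts when they are read away from each other, which is called divergent here. Trichoderma reesei senses light through the photoreceptors BLR1, BLR2 and ENV1, and its transcript levels on cellulose are known to differ between light and darkness. The deposited table pairs no identifier with a gene name, so that the genes below are known by identifier, strand letter (W or C, the last letter) and length alone, and no role can be given for them. No sequence is shown because none of the files used here holds one for these identifiers.

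Total counts ran from 7844524 to 12027855 per library, and 8939 rows had enough counts to be tested. TrE0662C, which was nearly missing from the deletion strain, had 0 counts in each sor4 light library and 70 and 78 counts in the ku80 light libraries; it had 1 to 39 counts in the sor4 dark libraries and 38841 and 64425 counts in the ku80 dark libraries. The row of sor4 itself cannot be looked up by name. No library pair of a group agreed within sampling noise: replicate pairs had a chi-square of 7.29 to 82.8 per gene, where counting error alone gives about 1.

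The 34 genes took 0.0366% to 0.137% of all counts in the sor4 light libraries and 0.0292% and 0.149% in the ku80 light libraries, against 0.395% to 0.562% in the sor4 dark libraries and 0.493% and 0.564% in the ku80 dark libraries. Each of the 34 genes was lower in all 6 light libraries than in any of the 6 dark libraries. With the strain means averaged, the level of the median gene was 7.57-fold lower in light, with a range of 2.68-fold to 130.3-fold. The 751 qualifying genes outside the runs that also kept 0.5 CPM in light had a median of 4.82-fold. At least 4-fold lower in both strains were 25 of the 34 genes, at least 8-fold 16 and at least 16-fold 8. In edgeR's quasi-likelihood test over all 8939 genes (Benjamini-Hochberg adjusted p under 0.05), 32 of the 34 genes passed as lower in light in sor4, where 28.8% of all tested genes did, and 31 passed in ku80, where 22.8% did. TrG0015C and TrG0016W passed in neither strain and TrB0609W did not pass in ku80. Since the rule used these contrasts, nothing is read from the calls.

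**Figure D1:**
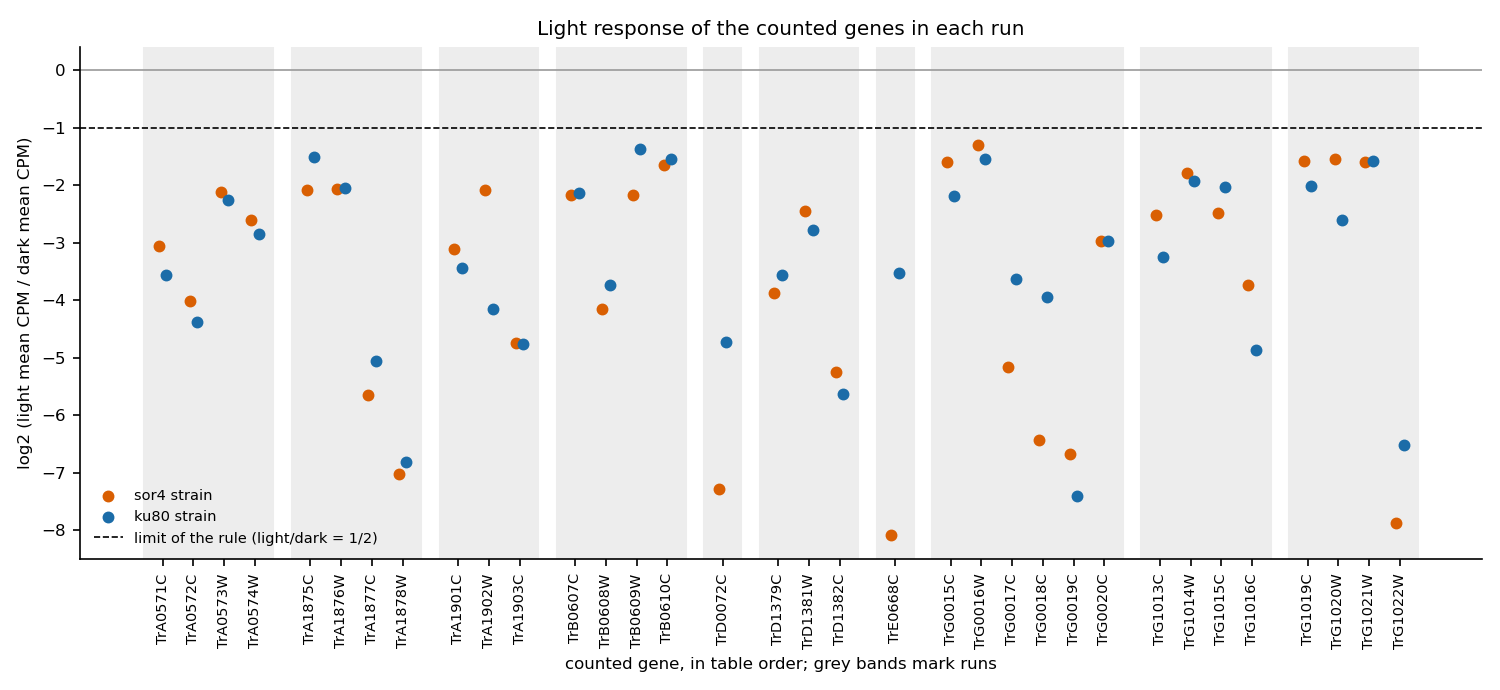
Log2 of the light mean over the dark mean in CPM for each of the 34 counted genes, in table order, with the sor4 strain in orange and the ku80 strain in blue; grey bands mark the 10 runs and the dashed line the limit of the rule. Within most bands the points lie at very different depths, for example from TrG0016W at the top to TrG0019C at the bottom of the band of 6 genes.

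By identifier letter, runs numbered 3 under TrA (2149 table rows), 2 under TrB (1977), 2 under TrD (1443), 1 under TrE (1307) and 3 under TrG (1209). They held 11, 4, 4, 1 and 14 counted genes. TrC and TrF, with 1580 and 1211 rows, had 0 runs. Whether the 11 runs were spread otherwise than the rows was not tested. In all, 9 runs had 4 rows and 2 had 6 rows, TrA1899C to TrA1904W and TrG0015C to TrG0020C. Of the 868 qualifying rows, 547 stood alone, 198 in runs of 2 and 75 in runs of 3, so that 37.0% had a qualifying neighbour in the same run. Among the 546 rows that met the mirrored rule (at least 5 CPM in light and at least 2-fold higher there in both strains), 26.2% had such a neighbour and 4 runs of 4 rows were found. TrG1013C to TrG1016C and TrG1019C to TrG1022W are parted by only 2 rows, TrG1017C and TrG1018W.

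Both strands took part in most runs. Of the 34 genes, 21 carry a C and 13 a W, and of the 11 runs only TrE0668C to TrE0671C lies wholly on 1 strand (CCCC). Of the 37 pairs of neighbouring rows inside the runs, 15 (40.5%) lie on the same strand, 13 (35.1%) are divergent and 9 (24.3%) are convergent, that is, read towards each other. Over all 10867 neighbouring pairs of the table the shares were 41.9%, 29.1% and 29.1%. In runs of 2 or 3 qualifying rows they were 43.6%, 38.3% and 18.1% of 149 pairs. The median length of the 34 genes was 1425 nucleotides (207 to 9453), against 1293 for the other qualifying rows and 1113 for all rows.

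The run with the most counted genes, TrG0015C to TrG0020C, held 6 genes and gave most of the counts of the set. Its genes summed to 733 ± 427 CPM in sor4 light (SD, n = 4) and 650.0 ± 843 CPM in ku80 light (SD, n = 2), against 3039 ± 454 CPM in sor4 darkness and 3298 ± 92.1 CPM in ku80 darkness. Its strands read CWCCCC. Responses within it ran from 2.68-fold lower in light for TrG0016W to 130.3-fold for TrG0019C (strain means averaged), a span of 5.61 on the log2 scale.

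The divergent pair TrG0015C and TrG0016W held high levels in most light libraries. TrG0016W stood at 83.4, 538, 793 and 633 CPM in the sor4 light libraries and 30.3 and 897 CPM in the ku80 light libraries, against 1428, 1369, 1002 and 1244 CPM in the sor4 dark libraries and 1329 and 1368 CPM in the ku80 dark libraries. TrG0015C had 32.4, 214, 315 and 259 CPM in the sor4 light libraries and 11.3 and 298 CPM in the ku80 light libraries, against 752, 648, 453 and 614 CPM in the sor4 dark libraries and 663 and 739 CPM in the ku80 dark libraries. Both were low in ku80 light replicate 1 and in sor4 light replicate 1 and high in the other 4 light libraries, while the dark libraries of both genes stayed within 2-fold of each other. The genes kept step: TrG0016W had 2.44 to 3.01 times the CPM of TrG0015C in the light libraries and 1.85 to 2.21 times in the dark libraries. The level of TrG0016W was 2.46-fold lower in light in sor4 and 2.91-fold lower in ku80; the log2 fold changes were -1.34 (SE 0.779, adjusted p = 0.167, edgeR) and -1.62 (SE 1.11, adjusted p = 0.264, edgeR). Without ku80 light replicate 2 the log2 fold change of TrG0016W in ku80 was -5.54 (adjusted p = 0.00373), and without ku80 light replicate 1 it was -0.65 (adjusted p = 0.572), so that the value in ku80 rests on which library is kept. In sor4 it was -0.97 without sor4 light replicate 1 (adjusted p = 0.290, edgeR). With only the groups compared, which leaves out the ku80 libraries, TrG0016W did not pass in sor4 either. Its log2 fold change in sor4 was -1.34 without ku80 light replicate 1 and -1.33 without ku80 light replicate 2. TrG0015C in sor4 was at -1.62 and -1.61 in the same 2 settings. With all 4 groups in the fit it did not pass in sor4 (adjusted p = 0.0921, edgeR). It passed with only the groups compared, at -1.62 (adjusted p = 0.0248, edgeR). In ku80 the log2 fold change of TrG0015C was -1.30 without replicate 1 (adjusted p = 0.272) and -6.02 without replicate 2 (adjusted p = 0.00305). Per length, TrG0015C was the most abundant of the 34 genes, with 335 CPM per kb in light and 1227 CPM per kb in darkness.

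The next 3 genes of the run fell far lower. TrG0019C stood at 6.80, 5.37, 7.79 and 9.5 CPM in the sor4 light libraries and 3.86 and 6.50 CPM in the ku80 light libraries, against 772, 787, 576 and 886 CPM in the sor4 dark libraries and 849 and 909.9 CPM in the ku80 dark libraries. No light library passed 9.5 CPM and no dark library fell under 576 CPM, and the level was 103-fold lower in light in sor4 and 169.8-fold in ku80. TrG0018C had 3.83, 1.91, 4.44 and 4.23 CPM in the sor4 light libraries and 2.67 and 36.5 CPM in the ku80 light libraries, against 363, 263, 235 and 386 CPM in the sor4 dark libraries and 329 and 274 CPM in the ku80 dark libraries. Ku80 light replicate 2 stood 13.7-fold above replicate 1 for TrG0018C and above all 4 sor4 light libraries, and without it the log2 fold change of TrG0018C in ku80 was -6.88 in place of -4.05; without replicate 1 it was -3.11. TrG0017C was found at 1.48, 1.28, 2.86 and 1.88 CPM in the sor4 light libraries and 1.19 and 3.70 CPM in the ku80 light libraries, against 41.9, 96.0, 81.8 and 49.2 CPM in the sor4 dark libraries and 32.7 and 28.0 CPM in the ku80 dark libraries. Its log2 fold change in ku80 was -3.76, with -3.10 without ku80 light replicate 1 and -4.73 without replicate 2. TrG0020C, at the end of the run, was 7.86-fold lower in light in sor4 and 7.85-fold in ku80, with 2.22 CPM per kb in light and 17.4 CPM per kb in darkness. The convergent neighbours TrG0016W and TrG0017C differed by 3.08 in their log2 response and the same-strand neighbours TrG0019C and TrG0020C by 4.05.

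**Figure D2:**
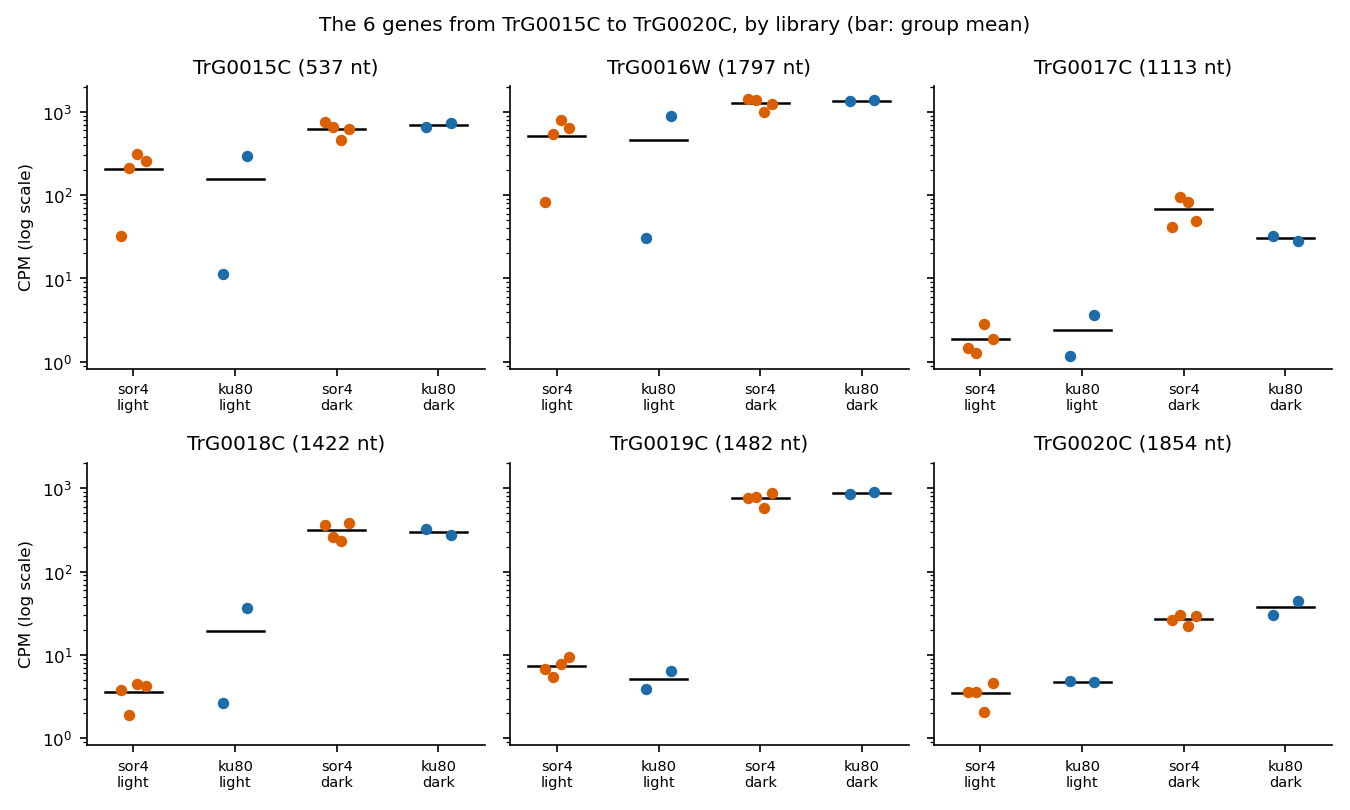
CPM on a log scale for the 6 genes from TrG0015C to TrG0020C in the 12 libraries, 1 point per library and a bar at the group mean, with sor4 in orange and ku80 in blue. TrG0015C and TrG0016W spread widely among the light libraries, with 11.3 to 315 CPM for TrG0015C, while TrG0019C lies between 3.86 and 9.5 CPM in all of them.

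TrA1875C to TrA1878W fell into 2 pairs. The divergent pair TrA1875C and TrA1876W was 4.22-fold and 4.19-fold lower in light in sor4 and 2.86-fold and 4.15-fold in ku80. TrA1875C stood at 18.4, 20, 20.6 and 19.9 CPM in the sor4 light libraries and 17.5 and 33.9 CPM in the ku80 light libraries, against 105, 81.6, 74.7 and 72.2 CPM in the sor4 dark libraries and 60.1 and 87.1 CPM in the ku80 dark libraries. Its neighbour read the other way kept 0.508 to 0.899 times this level in the light libraries and 0.758 to 0.932 times in the dark ones. The following pair, also divergent, was nearly silent in light. TrA1878W stood at 1.24, 0.455, 0.197 and 0.282 CPM in the sor4 light libraries and 0.0989 and 0.892 CPM in the ku80 light libraries, against 45.4, 82.3, 89.7 and 63.9 CPM in the sor4 dark libraries and 64.0 and 47.2 CPM in the ku80 dark libraries. TrA1877C was 50.1-fold lower in sor4 and 33.4-fold lower in ku80, and TrA1878W 129.6-fold and 112-fold. In the light libraries TrA1878W rests on 1 to 10 counts per library, and TrA1877C on 1 to 7. For TrA1878W the log2 fold change in ku80 was -6.01 without ku80 light replicate 1 and -9.03 without replicate 2, in place of -6.99, and in sor4 it was -7.78 without sor4 light replicate 1, in place of -7.13. For TrA1877C the log2 fold change in ku80 was -4.52 without ku80 light replicate 1 and -6.08 without replicate 2, in place of -5.19. The convergent genes TrA1876W and TrA1877C, where the pairs meet, differed by 3.30 in log2 response.

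TrG1019C to TrG1022W had a single strongly falling gene at its end. TrG1019C, TrG1020W and TrG1021W were 2.98-fold, 2.91-fold and 3.04-fold lower in light in sor4 and 4.03-fold, 6.06-fold and 2.98-fold in ku80. TrG1022W stood at 0.247, 0.455, 0 and 0.188 CPM in the sor4 light libraries and 0.692 and 0.510 CPM in the ku80 light libraries, against 77.9, 69.3, 34.1 and 28.2 CPM in the sor4 dark libraries and 46.0 and 63.8 CPM in the ku80 dark libraries. This is 235-fold lower in light in sor4 and 91.3-fold in ku80, although TrG1021W, directly before it on the same strand, kept 1.88 to 7.39 CPM in light. The light level of TrG1022W rests on 2, 5, 0 and 2 counts in the sor4 libraries and 7 and 4 in the ku80 libraries, so the size of its fall is poorly resolved. TrG1019C had 21.3, 18.7, 20.8 and 19.9 CPM in the sor4 light libraries and 24.9 and 11.1 CPM in the ku80 light libraries, against 74.7, 56.7, 51.9 and 57.4 CPM in the sor4 dark libraries and 62.1 and 82.8 CPM in the ku80 dark libraries. TrG1021W stood at 5.93, 3.64, 4.93 and 5.55 CPM in the sor4 light libraries and 1.88 and 7.39 CPM in the ku80 light libraries, against 13.1, 15.6, 18.1 and 14.1 CPM in the sor4 dark libraries and 14.3 and 13.4 CPM in the ku80 dark libraries. Without ku80 light replicate 1 the log2 fold changes in ku80 were -2.77 for TrG1019C, -3.29 for TrG1020W and -0.97 for TrG1021W, in place of -2.08, -2.66 and -1.69. TrG1021W was at -2.94 without replicate 2, and it did not pass in ku80 with only the groups compared (adjusted p = 0.113). TrG1022W in sor4 was at -8.45 without sor4 light replicate 2, in place of -7.81.

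The nearby run TrG1013C to TrG1016C was low throughout. Its 4 genes had 7.13 to 22.3 CPM per kb in darkness, and their levels were 3.62-fold to 17.1-fold lower in light. TrG1015C stood at 8.16, 9.56, 14.1 and 15.4 CPM in the sor4 light libraries and 17.5 and 13.8 CPM in the ku80 light libraries, against 91.7, 55.8, 59.3 and 57.5 CPM in the sor4 dark libraries and 62.3 and 65.1 CPM in the ku80 dark libraries. TrG1016C stood at 0.494, 1.55, 0.296 and 0.564 CPM in the sor4 light libraries and 0.198 and 0.255 CPM in the ku80 light libraries, against 11.7, 10.3, 6.87 and 9.64 CPM in the sor4 dark libraries and 7.03 and 6.26 CPM in the ku80 dark libraries. TrG1016C fell most, 13.3-fold in sor4 and 29.4-fold in ku80. Its light level rests on 4, 17, 3 and 6 counts in the sor4 libraries and 2 and 2 in the ku80 libraries. TrG1014W fell least, with 5.81, 3.64, 9.76 and 5.83 CPM in the sor4 light libraries and 7.71 and 3.19 CPM in the ku80 light libraries, against 32.9, 19.4, 16.3 and 18.4 CPM in the sor4 dark libraries and 17.5 and 23.7 CPM in the ku80 dark libraries. TrG1013C had 38 counts in ku80 light replicate 1 and 0 counts in replicate 2, and its log2 fold change in ku80 was -10.51 without replicate 1, which leaves a light group at 0 and so gives no bound, and -2.31 without replicate 2, against -3.23 with both. With only the groups compared TrG1013C did not pass in ku80 (adjusted p = 0.0833). TrG1014W in ku80 was at -2.75 without ku80 light replicate 1, in place of -1.98, and did not pass without replicate 2 (-1.48, adjusted p = 0.0520). TrG1016C in sor4 was at -4.41 without sor4 light replicate 2, in place of -3.72. Of the 2 rows between this run and the next, TrG1017C averaged 24.8 CPM in sor4 light and 23 CPM in ku80 light, against 30.8 and 33.6 CPM in darkness, a smaller difference than the rule asks. TrG1018W missed the dark level, with 4.36 CPM in sor4 and 3.80 CPM in ku80.

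TrA0571C to TrA0574W, CCWW, came closest to a common response among the runs with 4 counted genes. The levels were 4.58-fold to 18.7-fold lower in light, a span of 2.03 on the log2 scale. TrA0572C stood at 7.29, 5.74, 8.09 and 6.21 CPM in the sor4 light libraries and 7.71 and 7.78 CPM in the ku80 light libraries, against 139.7, 134, 81.9 and 86.8 CPM in the sor4 dark libraries and 119 and 205 CPM in the ku80 dark libraries. TrA0572C had the highest dark level per kb of the run and fell most, 16.2-fold in sor4 and 20.9-fold in ku80. TrA0573W fell least, with 9.52, 11.3, 14 and 9.97 CPM in the sor4 light libraries and 12.2 and 16.1 CPM in the ku80 light libraries, against 60.2, 50.3, 44.1 and 40.0 CPM in the sor4 dark libraries and 48.6 and 85.8 CPM in the ku80 dark libraries. The light libraries of TrA0572C stayed between 5.74 and 8.09 CPM and the ku80 libraries did not stand apart from the sor4 ones there. In darkness ku80 replicate 2 was the highest library for each of the 4 genes and lay above all 4 sor4 dark libraries, while ku80 replicate 1 lay within their range. In darkness the 4 genes ranged from 54.7 to 147 CPM per kb.

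TrB0607C to TrB0610C, CWWC, joined genes of very unequal abundance. In darkness they ranged from 0.557 CPM per kb for TrB0609W, the longest of the 34 genes at 9453 nucleotides, to 154 CPM per kb for its neighbour TrB0608W. TrB0608W stood at 6.30, 10.4, 9.86 and 10.4 CPM in the sor4 light libraries and 9.49 and 17.8 CPM in the ku80 light libraries, against 214, 200.3, 128 and 119.8 CPM in the sor4 dark libraries and 145 and 218 CPM in the ku80 dark libraries. TrB0608W was 17.9-fold lower in light in sor4 and 13.3-fold in ku80. TrB0609W stood at 0.989, 0.911, 1.97 and 0.846 CPM in the sor4 light libraries and 0.692 and 3.31 CPM in the ku80 light libraries, against 8.36, 5.61, 3.34 and 3.99 CPM in the sor4 dark libraries and 5.64 and 4.76 CPM in the ku80 dark libraries. The ku80 light and dark libraries of TrB0609W came close to each other, and it did not pass edgeR's test in ku80 (log2 fold change -1.49, SE 0.646, adjusted p = 0.0834). Without ku80 light replicate 2 its log2 fold change was -2.95 (adjusted p = 0.0104) and without replicate 1 it was -0.71 (adjusted p = 0.370). TrB0610C stood at 4.08, 6.83, 5.03 and 5.45 CPM in the sor4 light libraries and 3.36 and 5.86 CPM in the ku80 light libraries, against 21.4, 14, 18.0 and 13.9 CPM in the sor4 dark libraries and 15 and 11.9 CPM in the ku80 dark libraries. With the strain means averaged it fell least of the run. TrB0607C and TrB0610C were 4.47-fold and 3.15-fold lower in sor4 and 4.42-fold and 2.92-fold lower in ku80.

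TrA1899C to TrA1904W reads CWCWCW, with each gene on the other strand from the one before. Of its 6 rows only TrA1901C to TrA1903C were counted. They gave the only even response, defined as a span of at most 2 on the log2 scale. It was 1.89 with the strain means averaged. In sor4 alone the span was 2.67, which is uneven by the same limit, and in ku80 alone it was 1.32. TrA1901C stood at 41.2, 39.3, 39.5 and 45.6 CPM in the sor4 light libraries and 33.0 and 36.5 CPM in the ku80 light libraries, against 495, 334, 309.8 and 293 CPM in the sor4 dark libraries and 323 and 432 CPM in the ku80 dark libraries. TrA1901C was 8.64-fold lower in light in sor4 and 10.9-fold in ku80, and its 4 sor4 light libraries all stood above both ku80 light libraries. TrA1902W and TrA1903C are the shortest of the 34 genes, with 207 and 291 nucleotides. Per length TrA1903C had 20.7 CPM per kb in light and 558 CPM per kb in darkness, and the level was 26.9-fold lower in sor4 and 27.2-fold in ku80. TrA1902W stood at 2.84, 4.46, 3.35 and 3.20 CPM in the sor4 light libraries and 1.48 and 0.510 CPM in the ku80 light libraries, against 17.2, 15.7, 13.5 and 12.1 CPM in the sor4 dark libraries and 15.6 and 20 CPM in the ku80 dark libraries. TrA1902W was 4.22-fold lower in light in sor4 and 17.9-fold in ku80, where its log2 fold change was -5.15 without ku80 light replicate 1, in place of -4.17. TrA1902W has 4 to 15 counts in the ku80 light libraries and 23 to 49 in the sor4 light libraries. The left-out rows TrA1899C, TrA1900W and TrA1904W reached at most 0.494 CPM in any light library, against 4.32 to 78.7 CPM in the dark libraries. Their log2 responses, with the strain means averaged, were -9.52, -8.77 and -9.32, with 0 counts in ku80 light. TrA1902W, which fell least of the counted genes, was at -2.86, so the run is even over its counted rows alone.

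TrD1379C to TrD1382C had 3 counted genes on strands C, W and C and a left-out row, TrD1380C, between the first and the second. TrD1379C was 14.6-fold lower in light in sor4 and 11.8-fold in ku80, TrD1381W 5.44-fold and 6.86-fold, and TrD1382C 38.2-fold and 49.7-fold, a span of 2.85 on the log2 scale. TrD1382C, which sets that span, has 1 and 11 counts in the ku80 light libraries and 3 to 12 in the sor4 light libraries. Its log2 fold change in ku80 was -4.78 without ku80 light replicate 1 and -8.46 without replicate 2, in place of -5.82. TrD1381W stood at 13.3, 14.7, 12.3 and 16 CPM in the sor4 light libraries and 13.5 and 10.6 CPM in the ku80 light libraries, against 83.5, 85.5, 66.5 and 70.8 CPM in the sor4 dark libraries and 71.6 and 94.0 CPM in the ku80 dark libraries. Their dark levels were 28.4 to 44.0 CPM per kb.

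In the remaining runs most or all rows were silent in light. TrE0668C was the only counted gene of TrE0668C to TrE0671C. TrE0668C stood at 0, 0, 0 and 0.0940 CPM in the sor4 light libraries and 0.198 and 1.02 CPM in the ku80 light libraries, against 3.30, 14.4, 2.94 and 5.07 CPM in the sor4 dark libraries and 4.95 and 9.09 CPM in the ku80 dark libraries. Its counts were 0 to 1 in the sor4 light libraries and 2 and 8 in the ku80 light libraries, and only the ku80 mean brought it over 0.5 CPM. Without ku80 light replicate 1 it did not pass in ku80 (log2 fold change -2.83, adjusted p = 0.0663), and without replicate 2 it was at -5.13, in place of -3.66. In sor4 it was at -6.70 without sor4 dark replicate 2 and -9.00 without sor4 light replicate 4, in place of -7.45. The 3 rows after it on the same strand had 0 to 0.892 CPM in the light libraries and 200.3 to 1579 CPM in the dark ones. TrD0072C was the only counted gene of TrD0072C to TrD0075C. It had 0, 0, 1 and 1 counts in the sor4 light libraries and 0 and 8 counts in the ku80 light libraries, against 8.91, 7.18, 9.32 and 4.74 CPM in the sor4 dark libraries and 11.9 and 15.1 CPM in the ku80 dark libraries. Its ku80 light mean thus comes from 1 library, and without that library the log2 fold change in ku80 was -10.14, with a light group at 0, in place of -4.90; without the other library it was -3.77. TrB0848C to TrB0851C, with 0 counted genes, lay between 0 and 0.892 CPM in light and between 15.5 and 135 CPM in darkness. In all, 29.2% of the 48 rows in runs were under 0.5 CPM in light in both strains, against 7.93% of the 820 qualifying rows outside them.

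**Figure D3:**
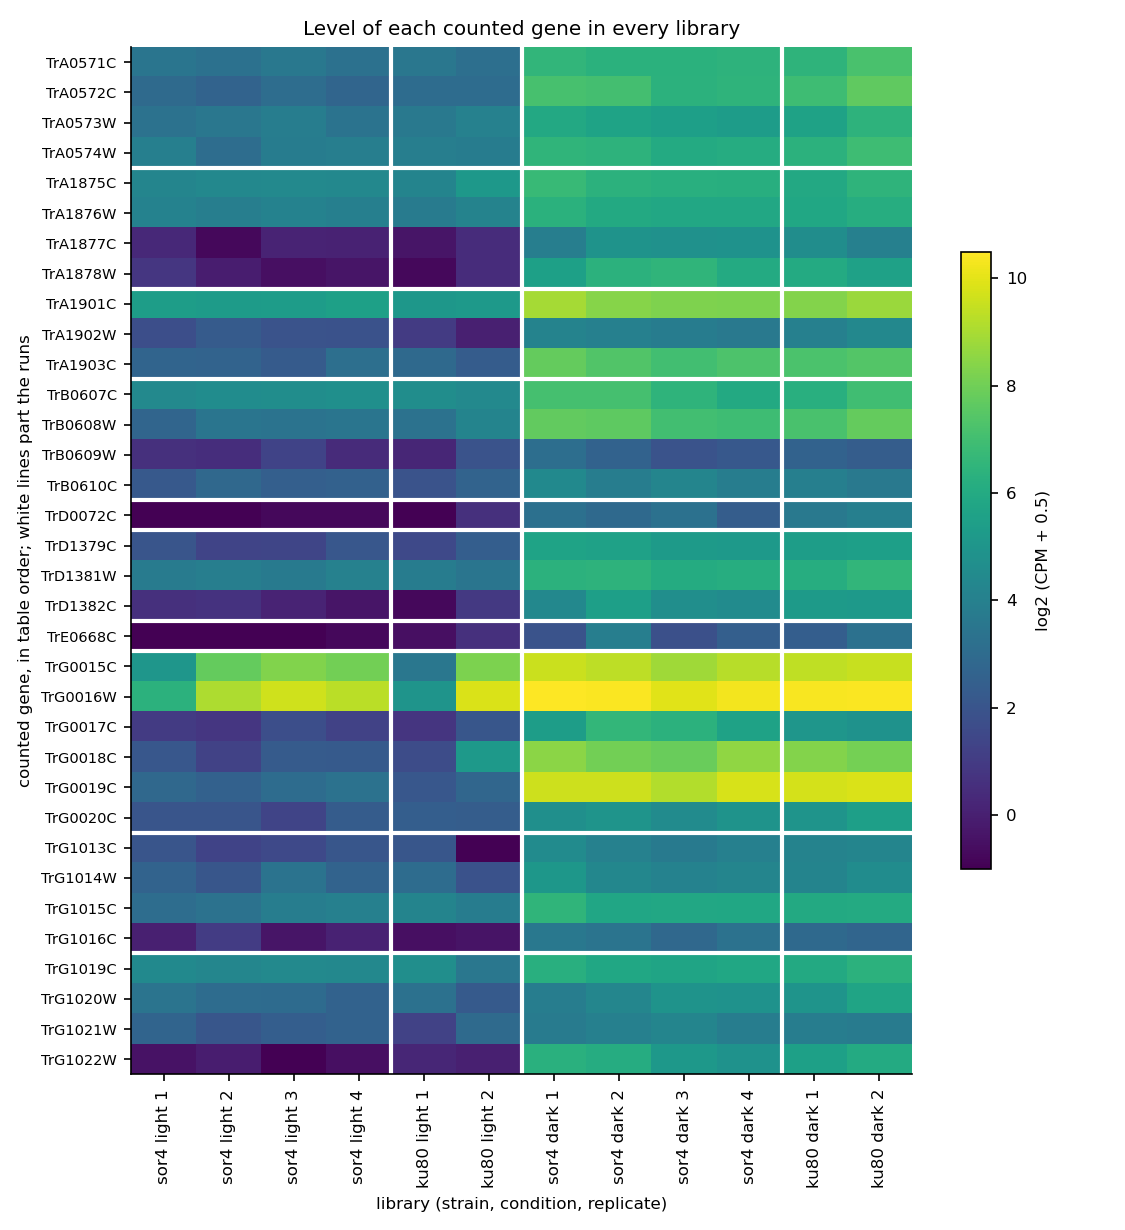
Log2 of CPM plus 0.5 for each of the 34 counted genes (in table order, white lines part the runs) in the sor4 light, ku80 light, sor4 dark and ku80 dark libraries. Every gene is darker, that is lower, in the 6 light columns, and TrG0015C, TrG0016W and TrG0018C differ visibly between the ku80 light replicates.

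Among the counted genes the response within the runs was mostly uneven. The 14 left-out rows, under 0.5 CPM in light in both strains, do not enter the spans. TrB0848C to TrB0851C, TrD0072C to TrD0075C and TrE0668C to TrE0671C, where most or all rows were left out, could therefore not be scored. Of the 8 runs with at least 2 counted genes, 1 spanned at most 2 on the log2 scale, that is 4-fold, and 7 spanned more. In sor4 alone 2 runs did, TrA0571C to TrA0574W (1.90) and TrG1013C to TrG1016C (1.93), and in ku80 alone 1 did, TrA1899C to TrA1904W. The narrowest spans were 1.89 in TrA1899C to TrA1904W and 2.03 in TrA0571C to TrA0574W, and the widest were 5.61 in TrG0015C to TrG0020C and 5.43 in TrG1019C to TrG1022W. Between 23 pairs of neighbouring counted genes the log2 responses differed by a median of 1.56, against 0.75 for 122 neighbouring pairs in runs of 2 or 3 rows, counted in the same way. Divergent neighbours were closest, with a median difference of 0.73 over 8 pairs (0.27 to 2.03). The median was 1.85 over 9 same-strand pairs (0.23 to 5.43) and 2.37 over 6 convergent pairs (0.12 to 3.30). In the runs of 2 or 3 rows the medians were 0.65 over 48 divergent, 0.60 over 53 same-strand and 1.28 over 21 convergent pairs. The same-strand pairs were thus as close as the divergent ones there, and no test was made since pairs of a run share genes.

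**Figure D4:**
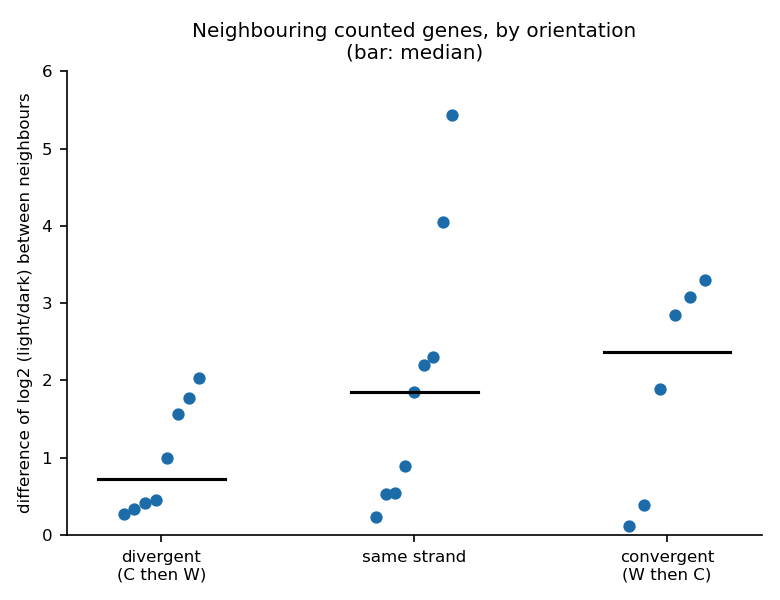
Absolute difference in log2 (light/dark), strain means averaged, between neighbouring counted genes of a run, 1 point per pair, with a bar at the median. The 8 divergent pairs lie at or under 2.03, while the same-strand pairs reach 5.43 and the convergent pairs 3.30. The value of 5.43 belongs to TrG1021W and TrG1022W, and TrG1022W has few counts in light. In runs of 2 or 3 rows, not drawn, divergent pairs reach 3.25, same-strand pairs 6.18 and convergent pairs 6.61.

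The runs ended mostly at rows with little signal. Of the 22 rows directly beside a run, 16 (72.7%) had under 5 CPM in darkness in at least 1 strain, against 49.9% of the 1093 rows beside a solitary qualifying row, 58.3% of the 247 rows beside runs of 2 or 3, and 33.5% of all rows. The other 6 were expressed and missed the ratio: 3 were lower in light in both strains and 3 higher. Beside TrG0015C to TrG0020C, TrG0014C averaged 19.6 CPM in sor4 light and 23.3 CPM in ku80 light, against 31.3 and 35.2 CPM in darkness, and TrG0021W averaged 1.80 and 2.45 CPM in light, against 3.91 and 6.87 CPM. TrA1874W, before TrA1875C, was higher in light, with 209 CPM in sor4 and 205 CPM in ku80, against 161 and 150.5 CPM in darkness. The other 7 rows beside the runs with 4 counted genes (TrA0570C, TrA0575C, TrA1879C, TrB0606W, TrB0611W, TrG1012C and TrG1023C) had strain means of at most 1.61 CPM in light and 2.84 CPM in darkness. At the limits of the rule, the larger of the ratios of light to darkness in the strains was 0.406 for TrG0016W and 0.385 for TrB0609W just inside, and 0.556 for TrD1383W and 0.662 for TrG0014C, beside runs, just outside. The smaller dark mean was 5.2 CPM for TrB0609W and 6.42 CPM for TrE0668C inside, and 3.91 CPM for TrG0021W and 3.80 CPM for TrG1018W outside.

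Light libraries of 1 group were farther apart for these genes than for most. Between the ku80 light libraries 17 of the 34 genes (50%) differed over 2-fold, against 15.1% of all tested genes and 34.6% of the qualifying genes outside the runs. Among the 4 sor4 light libraries 14 genes (41.2%) did, against 14.5% and 27.7%, and among the 4 sor4 dark libraries 8 genes (23.5%), against 21.4% and 35.3%. Between the ku80 dark libraries 0 of 34 did, against 7.28% and 6.52%. Many of the genes have few counts in light, and the part of low counts in this spread was not tested. In the sor4 dark libraries 21 of the 34 genes were highest in replicate 1, as were 43.7% of all tested genes, and 16 were lowest in replicate 3, as were 27.5%. Ku80 light replicate 2 was above replicate 1 for 21 of the 34 genes, against 47.1% of all tested genes. Where both libraries had counts, the largest differences were those of TrG0016W, 29.6-fold higher in replicate 2, and TrG0015C, 26.4-fold higher.

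Whether loss of sor4 changed the level of these genes was asked with the strain contrasts. The rule asked for the dark level and the fall in light in each strain. A gene that lost either of them in 1 strain could thus not be a member. The contrasts and their difference say nothing of such genes. In light the rule bears further on the contrast for 6 of the 34 genes, which reached the 0.5 CPM that kept them in the counts in 1 strain only. TrA1877C, TrD0072C, TrE0668C and TrG1022W reached it in ku80 alone, and TrA1878W and TrG1016C in sor4 alone. Their difference between the strains in light is partly fixed by that choice, so the counts are given for the other 28 genes too, a restriction made after the values were seen. In light 0 of the 34 genes passed edgeR's test (adjusted p under 0.05), as did 0% of all tested genes as higher and 0% as lower in sor4. Before adjustment, p was under 0.05 for 2 of the 28 genes, TrA1902W and TrG0018C (5 of 34 with TrD0072C, TrE0668C and TrG1016C), against 8.17% of all genes. DESeq2 called 1 of the 28 genes and 48 of all genes. The smallest adjusted p belonged to TrA1902W, whose 4 sor4 light libraries all exceeded both ku80 light libraries, at a log2 difference of 1.75 (SE 0.359, adjusted p = 0.266, edgeR; 0.0143 in DESeq2). Without ku80 light replicate 1 the log2 fold change was 2.73 for TrA1902W, -3.35 for TrG0018C and 7.82 for TrG1013C. The single ku80 light library left was then assumed to vary like the other groups, and it is the one that is high for TrG0018C and at 0 for TrG1013C above. The median log2 fold change of the 28 genes was 0.08, against 0.00 for all tested genes, with 17 above 0 and 11 below.

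In darkness 0 of the 34 genes passed the edgeR test, where 0% of all tested genes passed as higher and 0.0336% as lower in sor4. Of the 34, 5 had an unadjusted p under 0.05, against 7.75% of all genes. They were TrA0571C, TrA0572C, TrA0573W, TrG0017C and TrG1020W. Those under TrA are neighbours in the same run, so they are not separate cases. DESeq2 called 0 of the 34 genes and 78 of all genes. TrG0017C came closest, with all 4 sor4 dark libraries (41.9, 96.0, 81.8 and 49.2 CPM) above both ku80 dark libraries (32.7 and 28.0 CPM) at a log2 difference of 1.13 (SE 0.390, adjusted p = 0.479, edgeR). The median was -0.12, against 0.01 for all tested genes, with 13 above 0 and 21 below. The 4 genes from TrA0571C to TrA0574W had log2 fold changes of -0.57 to -0.43, beside the high ku80 replicate 2 named above. The interval of 2 standard errors to each side lay within 2-fold for 20 of the 34 genes in darkness. It did so for 16 of the 28 genes in light. For the others the interval does not exclude a 2-fold difference between the strains. These standard errors were derived from the F statistic, so the intervals are approximate.

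Of the 28 genes, 2 were higher in all 4 sor4 light libraries than in both ku80 light libraries (TrA1901C and TrA1902W), where 9.48% of all tested genes were, and 1 was lower (TrG0020C), where 10.5% were. TrG1016C was higher in this way and TrE0668C and TrG1022W were lower, but these 3 are among the genes kept through the strain where they are higher. In darkness 1 of the 34 genes was higher in this way (TrG0017C), where 8.03% were, and 2 were lower (TrD0072C and TrG1020W), where 6.1% were. The difference of the strain effects between light and darkness passed edgeR's test for 0 of the 34 genes, as for 0% of all tested genes in either direction. At an unadjusted p under 0.05 there were 3 of the 28 genes (4 of 34 with TrE0668C), against 6.59% of all genes. DESeq2 called 1 of the 28 genes and 4 of all genes. The member was TrA1902W, whose difference was 2.06 on the log2 scale (SE 0.436, adjusted p = 0.691 in edgeR and 0.0474 in DESeq2). Without ku80 light replicate 1 the difference was 3.05 for TrA1902W, -3.36 for TrG0018C and 7.95 for TrG1013C.

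**Figure D5:**
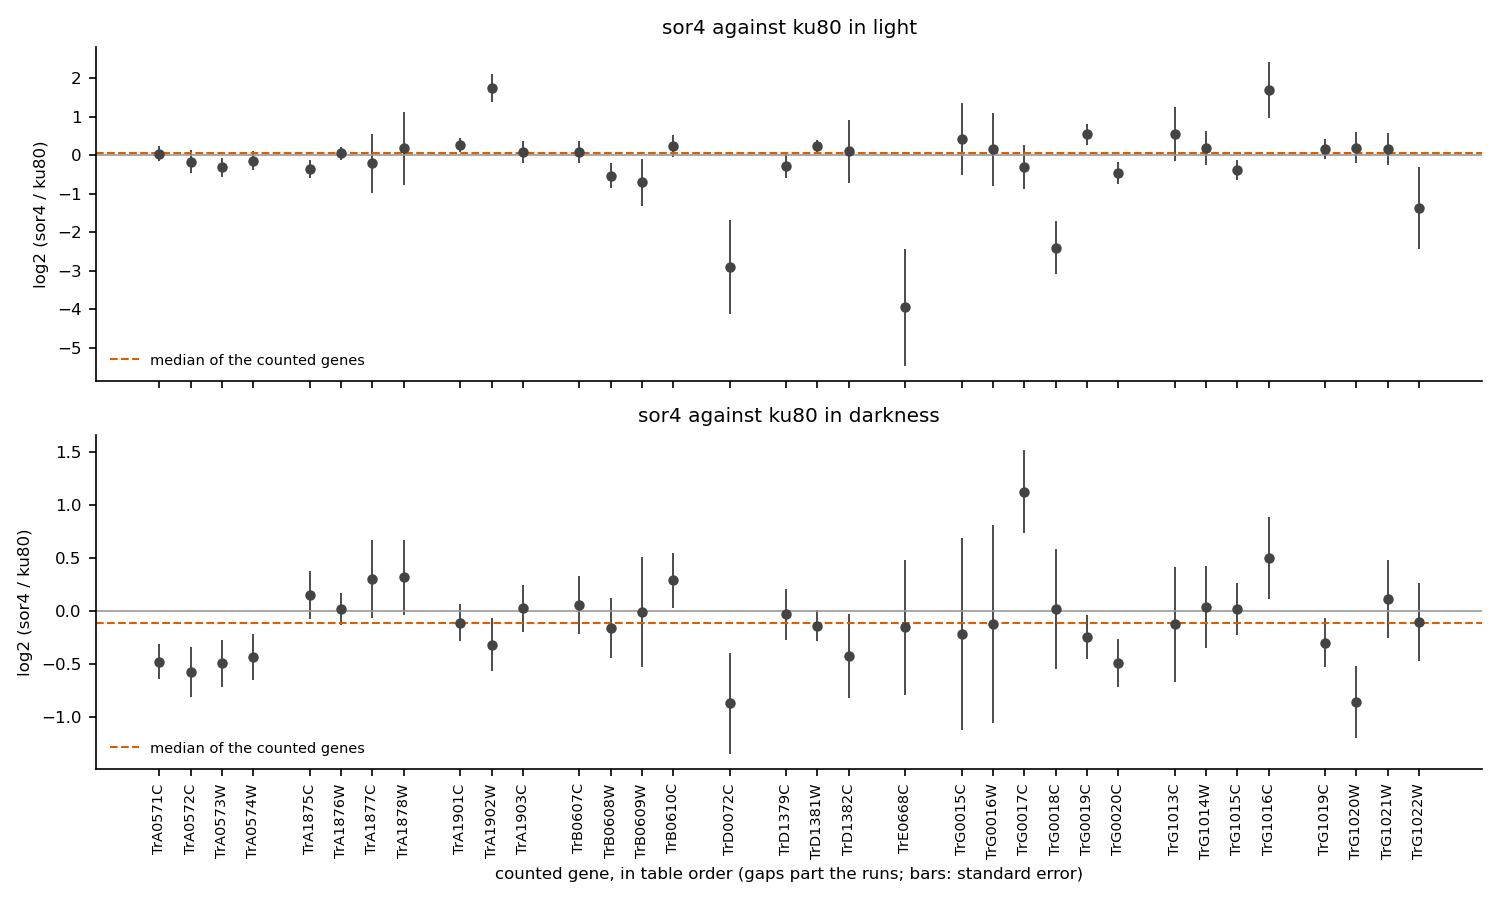
Log2 fold change of sor4 over ku80 in light (upper) and in darkness (lower) for the 34 counted genes, with bars of 1 standard error and a dashed line at their median. Most points lie within 1 of 0. TrE0668C and TrD0072C lie lowest in light and were kept in the counts only through their ku80 light mean; 0 of the 34 genes passed the edgeR test in either condition.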

How the data were processed

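RNA of mycelium was sequenced in 12 libraries, prepared with a stranded kit and rRNA depletion per the labels' protocols. The authors' deposited table holds whole-number counts per row, and HISAT2 2.2.1 is named in the submitters' processing notes. Build, annotation, counter version and strand setting were not given in the sources used here, which leaves counts of overlapping or near-identical genes uncertain. CPM was computed here from column totals, and 0 sample columns were left unused. Groups follow the titles and treatment labels; the treatment protocol text names darkness for all libraries. Tests used edgeR 4.0.16 (TMM, filterByExpr, quasi-likelihood, all 4 groups, Benjamini-Hochberg over 8939 genes) in R 4.3.3, with DESeq2 1.42.0 as an alternative; Python 3.11.15, pandas 2.3.3 and matplotlib 3.10.9 did the rest. Each standard error (SE) given with edgeR is the absolute log2 fold change divided by the square root of its F statistic. It is thus approximate. The procedures were tested on simulated data. The genes and lists were chosen with earlier results of these data known.

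Genes named with every library are, in the runs with the most counted genes, those with the highest dark level and the smallest and largest ratio of light to darkness, with rows beside those runs; TrG0015C to TrG0020C came first and 5 runs of 4 counted genes tied after it, so all 5 were described. Elsewhere the gene with the highest dark level was taken, and for the strain contrasts the gene with the smallest adjusted p. The other genes given in full, such as TrG0015C, TrG0017C, TrG0018C and TrA1902W, were chosen after their values were seen. Depth is 7844524 to 12027855 counts per library. With 2 against 4 libraries an exact two-sided permutation test of 1 gene cannot go below p = 0.0667, so none was used. None of the identifiers matched the table of reference genes.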

Additional observations from a re-analysis of the deposited data

Results flagged for a closer look

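Of 68 sets of 4 sor4 libraries (34 genes in light and in darkness), 5 held a library far from the other 3 relative to their range, 3 in light and 2 in darkness; chance marks about 1 in 20. In light, TrB0608W was at 6.30 CPM in sor4 replicate 1, against 9.86 to 10.4 CPM in the others. TrB0609W was at 1.97 CPM in sor4 light replicate 3, against 0.846 to 0.989 CPM. TrE0668C was at 0.0940 CPM in sor4 light replicate 4, which is 1 count, against 0 in the others. In darkness, TrA1877C was at 14.7 CPM in sor4 replicate 1, against 27.2 to 29.1 CPM in the others. Sor4 dark replicate 1 also held 91.7 CPM of TrG1015C, where the other 3 libraries held 55.8 to 59.3 CPM.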

How the results depend on the processing

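The set depends on the rule's limits. The 34 genes became 52 with a dark minimum of 2 CPM and 21 with 10 CPM; 20, 58 and 16 with a ratio of at most 1/3, 2/3 and 1/4; 99 and 9 with runs of at least 3 and 5; and 61 with 1 failing row allowed. The 11 runs became 6 (10 CPM), 7 (1/4), 36 and 2 (at least 3 and 5), 19 (1 failing row) and 6 when the left-out genes were removed first or ended a run. Even runs numbered 0 at a span of at most 1 and 5 at 3. With spans taken in sor4 alone, chosen after seeing the data, they numbered 2. Leaving out 1 library gave 30 to 35 genes, 9 to 11 runs and 0 to 3 even runs. The genes themselves changed more than these numbers. Without ku80 light replicate 1 the rule gave 31 genes, of which only 24 were among the 34. With TMM-scaled library sizes 38 genes were found, 33 of them shared.

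Among all genes, the strain contrast called 3 in darkness (78 with DESeq2, 1 with only the groups compared), 0 in light (48 and 1) and 0 for the difference (4 with DESeq2, 1 without a filter). Of the 34 genes DESeq2 called 1 in light and 1 for the difference. Light against darkness in ku80 called 3810 of all genes, and 2330 with only the groups compared. Leaving out 1 library gave 0 to 0 of the 34 genes and 1 to 22 of all genes in darkness, 0 to 3 and 0 to 110 in light, and 0 to 3 and 0 to 34 for the difference. For light against darkness it gave 30 to 33 and 2890 to 4049 in ku80, and 32 to 34 and 4521 to 5206 in sor4. The causes were not tested.

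With the replicate number as a block, all genes called were 1 in darkness and 1 in light, and 0 of the 34 genes were called in either. Deviations of same-numbered libraries correlated at -0.0923 (ku80, dark and light), 0.00381 to 0.0621 (sor4), -0.231 (strains in darkness) and 0.0672 (strains in light). These values do not show that the numbers pair the samples. They cannot exclude a shared culture or day, which the labels leave unsaid. Few counts in light and 2 ku80 libraries per condition limit every strain comparison.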
